A study of Mus musculus with 12 samples.

Results

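The genes described here are 8 genes of osteoclast differentiation, chosen by symbol: Tnfrsf11a, Oscar, Nfatc1, Mitf, Dcstamp, Itgb3, Acp5 and Ctsk. They were measured by 13 probes of the 25697 on each array, and they are 8 of the 16590 genes named by the probes. Nfatc1 had 6 probes and each of the other genes had 1. Transcripts of RAW264.7, an established macrophage line from mouse, were hybridised to 12 Illumina bead arrays, with 3 biological replicates in each of 4 groups, per the labels. The groups were cells given CpG with gefitinib, cells given CpG, cells given gefitinib, and untreated cells. CpG oligonucleotides imitate bacterial DNA and are sensed by an endosomal Toll-like receptor. Gefitinib is a kinase inhibitor developed against the EGF receptor. Cells with CpG received 10 µg/ml of it over 6 h, and gefitinib (10 µM) was given as a pretreatment of 1 h. All groups were grown in DMEM with serum and antibiotics, and the labels give no RANKL or M-CSF for any of them. RAW264.7 is a single transformed line, and how long the cells without CpG were incubated is not given in the sources used here.

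Osteoclasts are the bone-resorbing cells that form by fusion of monocyte and macrophage precursors. The cytokine RANKL binds the receptor RANK (Tnfrsf11a), and signals from RANK together with ITAM-coupled receptors such as OSCAR switch on the transcription factor NFATc1. NFATc1, with MITF and other factors, then drives the genes for cell fusion (Dcstamp), attachment to bone (Itgb3) and digestion of its matrix (Acp5, Ctsk). RAW264.7 cells are much used as osteoclast precursors because RANKL turns them into such cells in culture. Toll-like receptor ligands given to precursors before RANKL are known to hold back this conversion.

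Between 10705 and 11181 probes were detected on each array, meaning that the detection p against negative control beads was under 0.05. The 11977 probes detected on at least 3 of the 12 arrays were tested with limma, and "adjusted p" is the Benjamini-Hochberg value over all of them, with a threshold of 0.05. Values are log2 normalized signals, changes are differences between group means on that scale with ± SE, and levels are means ± SD with n = 3 arrays. The lowest normalized value of a detected probe lay between 4.87 and 4.97 on every array, so values near or below that range are not distinguishable from background. Of 9 macrophage markers 7 could be examined, and 6 of them were detected on all 12 arrays, among them Lyz2, Cd14 and Adgre1. Their summed linear signal was 24054 to 27604 with CpG and gefitinib and 40517 to 42586 with CpG. It was 26179 to 29391 with gefitinib and 28928 to 31990 in untreated cells. The sum was thus highest with CpG, and its part in the results was not tested. Lyz2 and Cd14, the brightest of these markers, weigh most in it. Mean log2 signals of Lyz2, Cd14, Adgre1, Spi1 and Itgam were highest with CpG. Fcgr1 was nearly the same with CpG as in untreated cells. Tyrobp was lowest with CpG (11.08, against 11.38 in untreated cells), so the markers did not all follow the sum. Of 9 mature osteoclast markers none was detected on all 12 arrays, and Calcr, Ocstamp, Dcstamp and Atp6v0d2 were detected on 0. Their summed signal was 226 to 249 with CpG and gefitinib and 246 to 329 with CpG. It was 222 to 233 with gefitinib and 227 to 236 in untreated cells. Mmp9 and Ctsk were each detected on 10 arrays. Mean log2 signals with CpG and in untreated cells were 6.30 and 4.999 for Mmp9, and 5.41 and 5.19 for Ctsk. Group means of the other markers lay between 4.35 and 4.94, near or below the detection limit. The higher sum with CpG therefore does not describe a rise of these markers as a set. All 6 lymphocyte markers examined were detected on 0 arrays, as were 5 of 7 osteoblast markers, 4 of 5 fibroblast and epithelial markers and 2 of 3 dendritic cell markers. The exceptions were the osteoblast markers Alpl (11 arrays) and Tnfsf11 (3), the epithelial marker Cdh1 (11) and the dendritic cell marker Ccr7 (4). Group means of Alpl and Cdh1 lay between 5.08 and 5.55. The summed signal of the lymphocyte markers was 125 to 130 with CpG and gefitinib, 127 to 137 with CpG, 131 to 139 with gefitinib and 127 to 136 in untreated cells.

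Nfatc1 and Tnfrsf11a were the members whose levels differed between groups. Nfatc1 was lower in cells given CpG than in untreated cells, and was higher in cells given CpG with gefitinib than in cells given CpG. Tnfrsf11a was lower under the combined treatment than in CpG-treated or untreated cells, but each of these calls was lost without certain single arrays. The call against CpG was also lost under median scaling. Of the 8 genes, 5 had a probe that passed the detection filter, with 8 of the 13 probes. Mitf, Dcstamp and Itgb3 did not pass it and were not tested. In CpG with gefitinib against CpG, 3 of the 8 tested probes were called (37.5%), beside 33.8% of all probes tested, so the share of members called was near the background. In CpG against untreated, 2 of 8 were called, beside 22.2% of all probes. In the comparisons that follow, CpG with gefitinib against CpG and CpG against untreated share the CpG arrays, and the comparisons with untreated cells share the untreated arrays.

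Tnfrsf11a encodes RANK, the receptor through which RANKL starts osteoclast formation. Its probe was detected on all 12 arrays. The log2 signals were 6.77, 6.46 and 6.46 with CpG and gefitinib, and 7.38, 6.78 and 7.29 with CpG. They were 6.87, 6.55 and 7.11 with gefitinib, and 7.29, 7.50 and 7.45 in untreated cells. Every array of cells given both agents lay below every CpG array, although by only a narrow margin from the lowest CpG array, and below every untreated array. The gefitinib arrays also lay below the untreated arrays, while the CpG and untreated arrays overlapped. The means ran in the order CpG with gefitinib (6.56 ± 0.18), gefitinib (6.84 ± 0.28), CpG (7.15 ± 0.32) and untreated (7.41 ± 0.11), and the arrays of each neighbouring pair in this order overlapped.

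With CpG and gefitinib Tnfrsf11a was lower than with CpG by 0.59 on the log2 scale (-0.59 ± 0.17, adjusted p = 0.0196 by limma), or 0.666 times the level with CpG. Against untreated cells the change was -0.85 ± 0.17 (adjusted p = 0.0211), or 0.556 times the untreated level. In that comparison it was 1 of the 8 member probes called, beside 3.01% of all probes. In whole cultures, fewer cells of a kind and less RNA per cell cannot be told apart. For gefitinib alone against untreated cells it was -0.57 ± 0.17, which did not pass the threshold (adjusted p = 0.0701). It did pass at the same size with trended robust eBayes (adjusted p = 0.0413), with the replicate block (0.0451) and without replicate 2 of CpG (0.0324). Same-numbered arrays did not deviate together in every pair of this comparison. Tnfrsf11a also passed at a smaller size without background correction (-0.31, adjusted p = 0.0443), with the same values from the authors' table. It did not pass under cyclic loess, median scaling, 1 probe per gene or the filter for detection on all 3 arrays of a group. The CpG effect with gefitinib minus that without it was -0.02 ± 0.25 (95% interval -0.55 to 0.51, adjusted p = 0.977), so the differences with gefitinib in the presence and in the absence of CpG were not shown to differ. For CpG alone against untreated cells the difference was -0.26 ± 0.17 (95% interval -0.64 to 0.12, adjusted p = 0.333). The call against CpG was lost without replicate 2 or 3 of CpG with gefitinib or replicate 1 or 3 of CpG, with adjusted p between 0.0618 and 0.0838, and also under median scaling (-0.53, adjusted p = 0.0629). Without background correction the changes were -0.30 against CpG and -0.45 against untreated cells, both called. The call against untreated cells was lost without replicate 2 or 3 of CpG with gefitinib or of untreated cells, with adjusted p between 0.0684 and 0.0883.

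The promoter window of Tnfrsf11a, shown because it is the member with a called change whose window is in the RefSeq table (build GRCm38.p6), runs 5′ to 3′ on the plus strand at chr1:105780473-105780772, from 250 bases before to 50 bases after the annotated start.
Tnfrsf11a: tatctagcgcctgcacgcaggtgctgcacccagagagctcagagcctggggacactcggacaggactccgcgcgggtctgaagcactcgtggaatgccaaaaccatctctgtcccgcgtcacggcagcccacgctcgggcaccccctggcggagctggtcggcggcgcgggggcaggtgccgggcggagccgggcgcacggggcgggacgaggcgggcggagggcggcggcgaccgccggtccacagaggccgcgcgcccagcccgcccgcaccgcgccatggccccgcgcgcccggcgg
None of the letters searched on both strands occurred in it. These were TCACGTG and TCATGTG, the E-box and M-box forms bound by MITF and its relatives, TGACTCA for AP-1, GGAAA for the NFAT core and GAGGAA for the core of PU.1 sites, and they occurred in 3.77%, 3.77%, 5.2%, 61.3% and 28.3% of all 32851 windows of that length.

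Oscar encodes an immunoglobulin-like receptor that signals through the ITAM adaptor FcRγ and costimulates osteoclast formation. Its probe was detected on 7 of the 12 arrays, at 1 of 3 with CpG and gefitinib and 2 of 3 in each other group. The log2 signals were 4.89, 4.79 and 4.95 with CpG and gefitinib, and 4.90, 5.24 and 5.22 with CpG. They were 5.05, 4.70 and 5.24 with gefitinib, and 5.61, 4.95 and 4.99 in untreated cells. All groups overlapped, and most values were close to the detection limit. The largest difference was that of CpG with gefitinib against untreated (-0.31 ± 0.18, 95% interval -0.70 to 0.09, adjusted p = 0.412), and against CpG it was -0.24 ± 0.18 (adjusted p = 0.337).

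**Figure D1:**
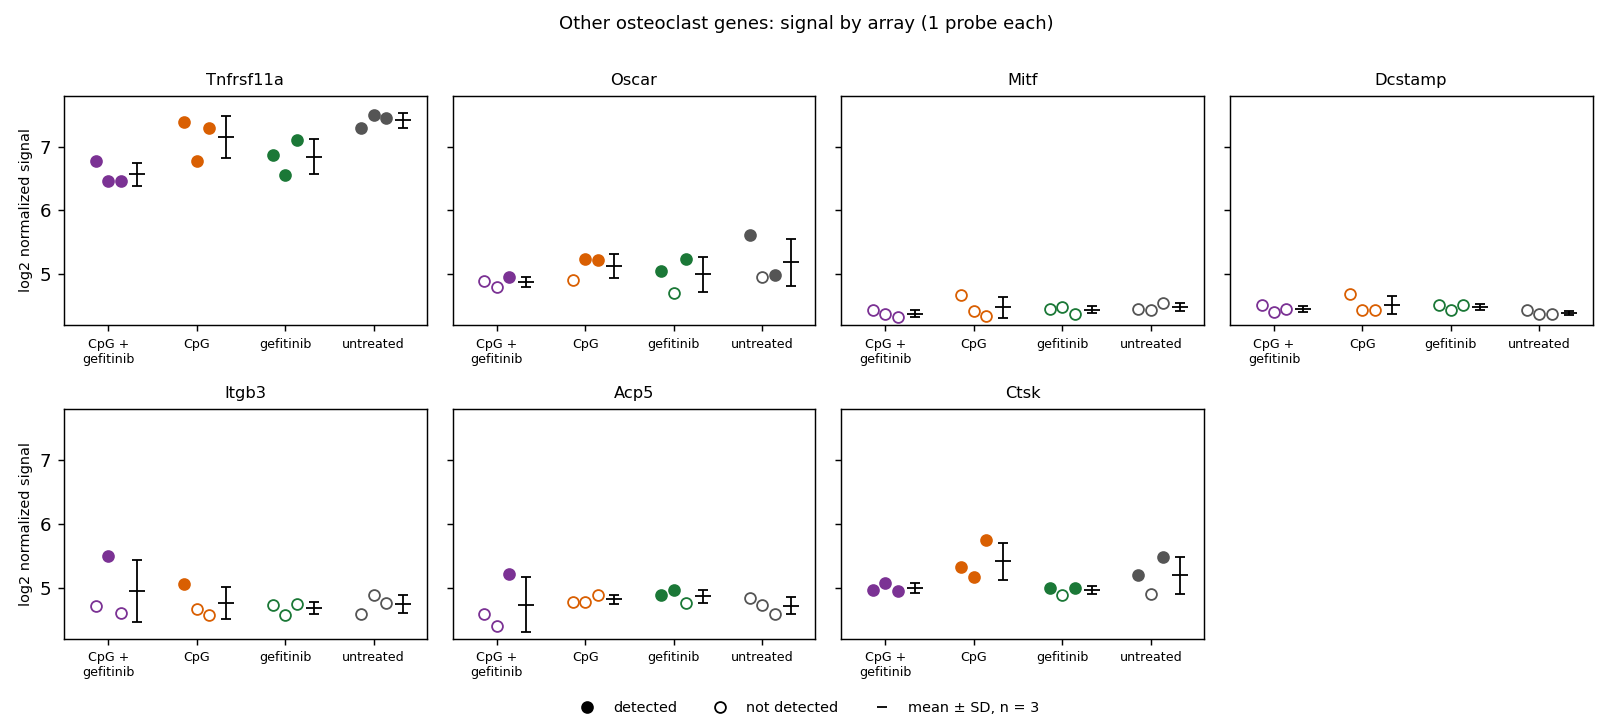
Log2 normalized signal on each array (y axis) of the 7 members with 1 probe, by group (x axis), with filled points for arrays on which the probe was detected, open points for arrays on which it was not, and mean ± SD of 3 arrays beside them. Tnfrsf11a lies between 6.46 and 7.50 and is detected on every array, while Mitf and Dcstamp are open points throughout.

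Nfatc1 encodes the calcineurin-dependent transcription factor that is regarded as the master regulator of osteoclast formation. It had 6 probes, of which ILMN_2648455 and ILMN_1216522 were detected on all 12 arrays, and both are annotated to transcript NM_198429. At ILMN_2648455 the log2 signals were 7.53, 7.33 and 7.21 with CpG and gefitinib, 6.23, 5.95 and 5.88 with CpG, 7.52, 7.25 and 7.43 with gefitinib, and 7.23, 7.12 and 7.29 in untreated cells. At ILMN_1216522 they were 7.14, 6.93 and 7.31 with CpG and gefitinib, 6.10, 5.54 and 6.08 with CpG, 7.29, 6.97 and 7.12 with gefitinib, and 7.16, 6.95 and 7.05 in untreated cells. At both probes the 3 CpG arrays lay below the other 9, and the arrays of the other groups overlapped one another. In the order of the means at ILMN_2648455, gefitinib (7.40 ± 0.14), CpG with gefitinib (7.36 ± 0.16) and untreated cells (7.21 ± 0.09) were neighbours that did not differ beyond their spread, and CpG (6.02 ± 0.18) stood apart.

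With CpG, Nfatc1 fell to 0.438 times the untreated level by ILMN_2648455 (-1.19 ± 0.13, adjusted p = 1.37e-05) and to 0.451 times by ILMN_1216522 (-1.15 ± 0.16, adjusted p = 0.000135). In cells given CpG with gefitinib it was 2.52 times the level with CpG by ILMN_2648455 (1.34 ± 0.13, adjusted p = 3.56e-06) and 2.34 times by ILMN_1216522 (1.22 ± 0.16, adjusted p = 5.47e-05). These calls held with each array left out in turn, where ILMN_2648455 gave 1.25 to 1.44 against CpG and -1.30 to -1.12 for CpG against untreated. The sizes depend on the background correction: without it ILMN_2648455 gave 0.64 and ILMN_1216522 0.55 for CpG with gefitinib against CpG, and -0.55 and -0.50 for CpG against untreated, all still called. Between cells given both agents and untreated cells the difference was 0.14 ± 0.13 at ILMN_2648455 (95% interval -0.13 to 0.42, adjusted p = 0.606) and 0.07 ± 0.16 at ILMN_1216522 (95% interval -0.27 to 0.42). Against cells given gefitinib it was -0.04 ± 0.13 (95% interval -0.32 to 0.23) and 0.00 ± 0.16 (95% interval -0.34 to 0.34) at these probes. No probe passed the threshold in that last comparison, in which limma called 0 of all 11977 probes, with 382 at an unadjusted p under 0.05. The CpG effect differed between cells with and without gefitinib by 1.15 ± 0.18 at ILMN_2648455 (adjusted p = 0.000878) and by 1.15 ± 0.22 at ILMN_1216522 (adjusted p = 0.00431). Without background correction these differences were 0.53 and 0.50, both called. For this interaction 2 of the 8 member probes were called, beside 10.4% of all probes.

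The other 4 probes of Nfatc1 were dim. ILMN_1224430, annotated to transcript NM_016791, was detected on 10 arrays, with 5.13, 5.29 and 5.56 for CpG and gefitinib, 5.06, 4.90 and 4.60 for CpG, 4.99, 5.59 and 4.83 for gefitinib, and 5.43, 5.17 and 5.27 for untreated cells. Its CpG arrays lay below those of cells given both agents and of untreated cells. The changes, 0.47 ± 0.19 for CpG with gefitinib against CpG (adjusted p = 0.0694) and -0.44 ± 0.19 for CpG against untreated (adjusted p = 0.119), did not pass the threshold. Without replicate 2 of gefitinib the first did (0.47, adjusted p = 0.0293), as did the interaction (0.86, adjusted p = 0.0348, against 0.63 ± 0.27 and 0.175 with all arrays). ILMN_2648704, annotated to NM_198429 like the brightest probes, was detected on 2 of 3 gefitinib arrays (5.06, 4.89 and 5.14) and on 0 of 3 untreated arrays (4.63, 4.65 and 4.56). With CpG and gefitinib it read 5.02, 4.69 and 4.72, and with CpG 4.50, 4.51 and 4.60, without a call between them (0.27 ± 0.12, adjusted p = 0.0841). It was called for gefitinib against untreated (0.42 ± 0.12, adjusted p = 0.0483), where 1 of the 8 member probes and 6.45% of all probes were called. Since the untreated arrays were not above background, the measured difference is a bound, at least 1.08-fold higher with gefitinib. The call was lost without any 1 array other than replicate 1 of CpG with gefitinib or replicate 2 of CpG (0.36 to 0.49, adjusted p up to 0.18), and the bright probes gave 0.19 ± 0.13 (adjusted p = 0.415) and 0.07 ± 0.16 (adjusted p = 0.829) in the same comparison. ILMN_2647734 and ILMN_2647739, both annotated to NM_016791, were detected on 2 and 0 arrays, with log2 signals of 4.41 to 5.18 and 4.39 to 4.69, and were not tested.

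**Figure D2:**
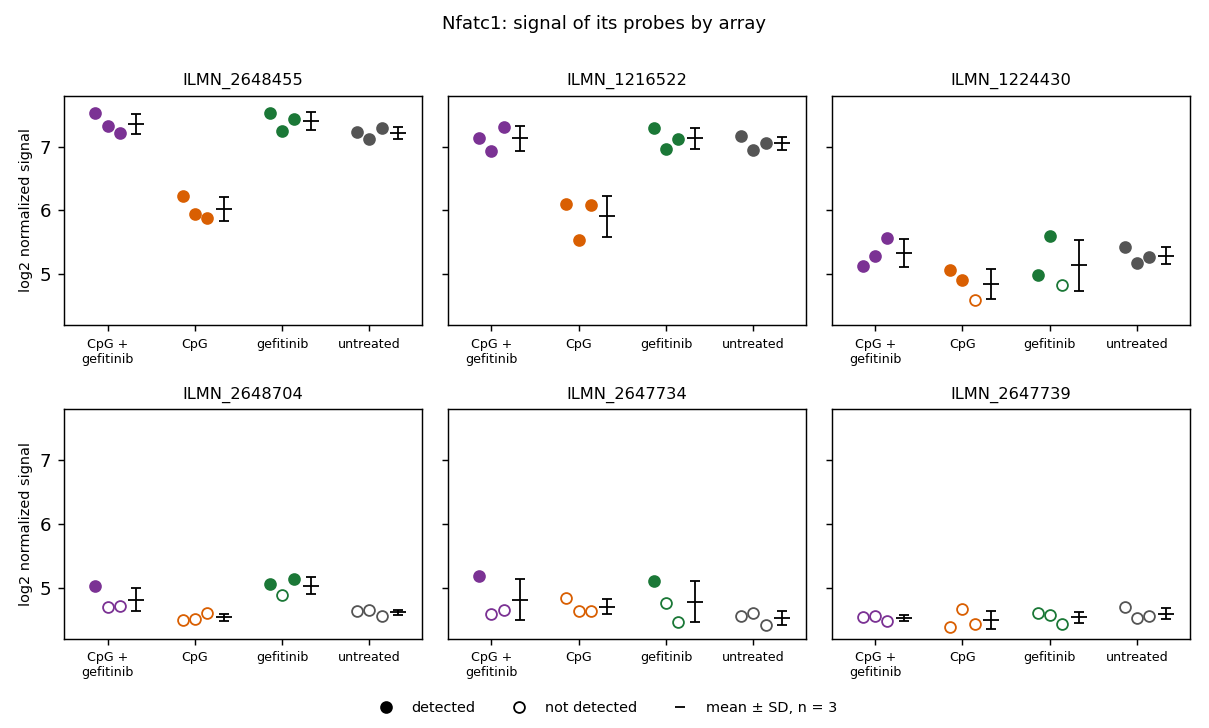
Log2 normalized signal on each array (y axis) of the 6 Nfatc1 probes by group (x axis), with filled points where the probe was detected, open points where it was not, and mean ± SD of 3 arrays beside them. At ILMN_2648455 and ILMN_1216522 the CpG arrays lie between 5.54 and 6.23, below all arrays of the other groups.

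Mitf encodes a transcription factor that works with NFATc1 and PU.1 on osteoclast genes. Its probe, annotated to transcript NM_008601, was detected on 0 of 12 arrays. The log2 signals spanned 4.32 to 4.67, which is below the lowest detected probe of every array, so neither the presence of Mitf transcripts nor a change in them could be read from it. Isoforms of Mitf that this probe does not cover were not analysed here.

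Dcstamp encodes the membrane protein required for precursors to fuse. Its probe was also detected on 0 arrays, with log2 signals between 4.37 and 4.69. Itgb3 encodes the beta 3 chain of the vitronectin receptor, by which osteoclasts attach to bone. Its probe was detected on 1 array of CpG with gefitinib (replicate 2, 5.50) and 1 CpG array (replicate 1, 5.05), and the other 10 arrays lay between 4.57 and 4.88. Neither array was matched by its own replicates, which read 4.71 and 4.61 with CpG and gefitinib, and 4.66 and 4.57 with CpG.

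Acp5 encodes tartrate-resistant acid phosphatase, the classical histochemical marker of osteoclasts. It was detected on 3 arrays, the fewest that the filter admits, with log2 signals of 4.58, 4.40 and 5.22 with CpG and gefitinib, 4.78, 4.77 and 4.89 with CpG, 4.88, 4.96 and 4.76 with gefitinib, and 4.84, 4.73 and 4.58 in untreated cells. All groups overlapped, and 1 array of CpG with gefitinib (replicate 3) carried the highest value. No comparison was called, and the difference of CpG with gefitinib from CpG was -0.08 ± 0.17 (95% interval -0.45 to 0.29, adjusted p = 0.755).

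Ctsk encodes cathepsin K, the protease that degrades bone collagen. It was detected on 10 arrays, with 4.96, 5.08 and 4.95 for CpG and gefitinib, 5.33, 5.17 and 5.74 for CpG, 4.99, 4.89 and 5.0 for gefitinib, and 5.20, 4.90 and 5.48 for untreated cells. The arrays of CpG with gefitinib lay below the CpG arrays and showed the smaller spread. The difference, -0.42 ± 0.16, did not pass the threshold (adjusted p = 0.0604). It did pass with the replicate number as a block (adjusted p = 0.0362, or 0.0373 without the untreated arrays). The labels name no pairing of the arrays, and that same-numbered arrays deviated together here was found from these data. The difference also passed without replicate 2 of CpG (-0.54, adjusted p = 0.0284) or without replicate 2 or 3 of untreated cells (adjusted p = 0.0432 and 0.0438). CpG against untreated gave 0.22 ± 0.16 (adjusted p = 0.389) and gefitinib against untreated -0.23 ± 0.16 (adjusted p = 0.414).

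**Figure D3:**
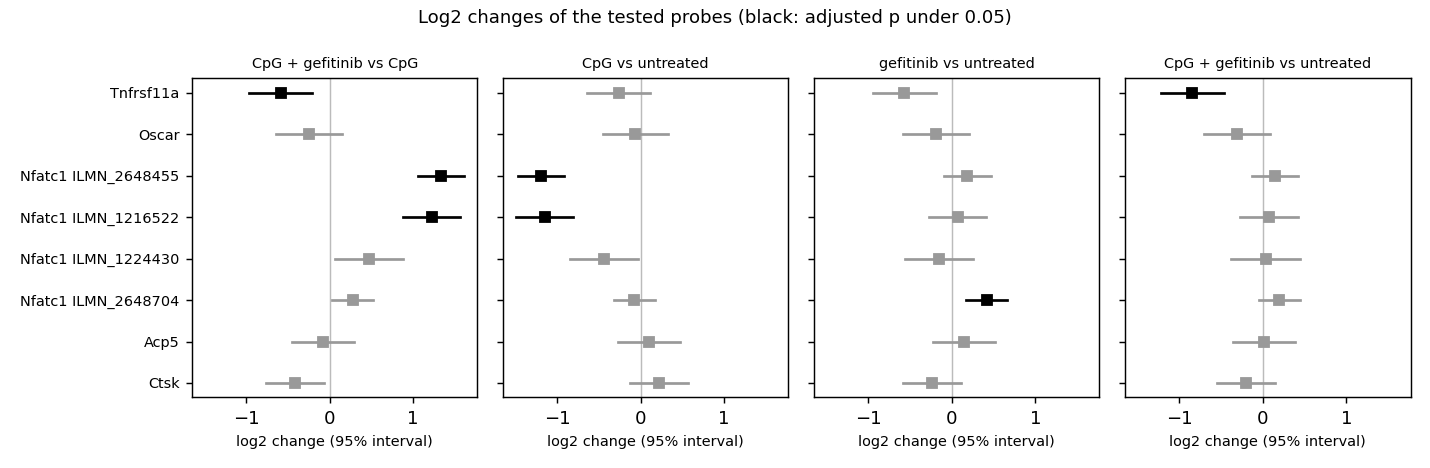
Log2 change (x axis) with its 95% interval for the 8 tested probes (rows) in 4 comparisons (panels), black where the adjusted p was under 0.05 and grey otherwise. The bright Nfatc1 probes lie at 1.34 and 1.22 in CpG with gefitinib against CpG and at -1.19 and -1.15 in CpG against untreated, and Tnfrsf11a lies at -0.59 in the first of these and -0.85 in CpG with gefitinib against untreated.

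Promoter windows of 5 of the 8 members were in the RefSeq table, with 9 windows, and those of Nfatc1, Dcstamp and Itgb3 were not analysed here. The M-box form was found in 1 of the 9 windows, that of an Acp5 start on the minus strand at chr9:22130549-22130848, shown here with the match in capitals as it reads on this strand (CACATGA, at -90 from the annotated start).
Acp5: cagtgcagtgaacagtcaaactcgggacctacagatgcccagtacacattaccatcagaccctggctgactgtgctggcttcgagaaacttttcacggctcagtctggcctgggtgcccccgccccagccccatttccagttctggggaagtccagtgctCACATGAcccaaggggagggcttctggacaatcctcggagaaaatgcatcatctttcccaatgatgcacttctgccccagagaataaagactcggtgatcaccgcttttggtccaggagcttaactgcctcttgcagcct
The M-box form occurred in 3.77% of all 32851 windows. The NFAT core letters occurred in 7 of the 9 windows, in Acp5, Ctsk, Mitf and Oscar, beside 61.3% of all windows. Those of PU.1 occurred in 2, in Ctsk and Oscar, beside 28.3%. The E-box and AP-1 letters occurred in 0, beside 3.77% and 5.2%. A match of this kind is a run of letters and not evidence of binding.

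The wider osteoclast pathway was followed through 8 lists of other genes, by role, with 120 genes of which 87 were tested by their brightest probe. The lists were chosen with earlier results of these data known, so a share above that of all genes is a description only. In CpG with gefitinib against CpG 10 were higher and 32 lower (48.3% called), beside 35.9% of all 8101 genes taken with 1 probe each, and the median change was -0.19 against 0.06 for all genes. In CpG against untreated 27 were higher and 10 lower (42.5%, beside 23.9% of all genes), with a median of 0.09 against -0.06. In gefitinib against untreated 3 were higher and 3 lower (6.9%, beside 6.78% of all genes), and in CpG with gefitinib against untreated Cd9 was higher and Clec5a, Fos and Cd44 were lower (4.6%, beside 3.18%). These last counts were unstable, with 0 to 2 higher and 0 to 3 lower when each array was left out, and 0 in either direction under median scaling or without replicate 2 or 3 of CpG with gefitinib or replicate 1 of untreated cells. For the interaction 3 were higher and 18 lower (24.1%, beside 11.3%). In CpG with gefitinib against gefitinib 0 were called by limma, as in each alternative, beside 0 of all 8101 genes. Of all these genes 229 had an unadjusted p under 0.05 there. The detection filter admits genes seen with CpG alone, so these counts describe the tested genes and not the whole lists. Fosl1, Tfec, Rbpj and Cbl would not have passed it without their CpG arrays. They are counted among the lower genes of their lists in CpG with gefitinib against CpG, so those counts partly follow from the filter.

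Called genes of the receptors and their proximal signalling went in both directions when CpG with gefitinib was set against CpG, where 35.9% of all genes were called. Of 5 tested genes for RANK and M-CSF ligands, receptors and adaptors, 1 was called by its brightest probe, Tab1, whose product activates the kinase TAK1 downstream of RANK. It was higher with CpG and gefitinib than with CpG (0.75 ± 0.14, adjusted p = 0.00105) and lower with CpG than in untreated cells (-0.60 ± 0.14), while 2 of its 4 probes were not called in either comparison. Traf6, the adaptor of RANK, was not called by its brightest probe in CpG with gefitinib against CpG (0.27 ± 0.17, adjusted p = 0.231), but 1 of its 3 probes was called lower, so its probes disagree. Of 9 ITAM receptors, adaptors and kinases, 1 was higher and 2 lower in CpG with gefitinib against CpG, a share near that of all genes. Trem2, a DAP12-coupled receptor, was higher (1.06 ± 0.15, adjusted p = 8.66e-05) and had fallen with CpG against untreated (-1.01 ± 0.15). Lcp2, the adaptor SLP-76, was lower (-1.82 ± 0.17, adjusted p = 2.96e-06) and had risen with CpG (1.83 ± 0.17). Clec5a, another DAP12-coupled receptor, was lower with both agents than with CpG (-0.74 ± 0.14) and lower with gefitinib than in untreated cells (-0.57 ± 0.14, adjusted p = 0.0305). Plcg2, the phospholipase that releases calcium, fell with CpG (-0.54 ± 0.12).

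In the calcium branch that activates NFATc1 most tested genes were not called. Of 9 tested genes 2 were higher and 0 lower in CpG with gefitinib against CpG, beside 21.3% of all genes higher, so this share was near the background, and under cyclic loess 1 was lower. Camk1, a calmodulin-dependent kinase, was higher by 1.19 ± 0.14 (adjusted p = 2.12e-05) and had fallen with CpG by 0.78 (-0.78 ± 0.14). Ppp3ca, the calcineurin catalytic subunit that dephosphorylates NFAT proteins, was higher by 0.63 ± 0.12 (adjusted p = 0.00106), with 1 of its 2 probes called, and had fallen with CpG at both probes (-0.60 ± 0.12).

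Activating transcription factors other than Nfatc1 mostly moved the other way. Of 11 tested, 8 were lower and 1 higher in CpG with gefitinib against CpG (median -0.86), beside 14.6% of all genes lower. In CpG against untreated 7 were higher and 1 lower, beside 9.58% of all genes higher and 14.3% lower. Fosl1, an AP-1 subunit whose probe was above background on 0 of the 3 combined-treatment arrays, had a bound of at least 3.70-fold lower (adjusted p = 4.34e-08). With CpG it was at least 3.67-fold higher than in untreated cells. Without the CpG arrays its probe would not have passed the detection filter. Fos, the AP-1 subunit that osteoclast precursors need, was lower by 1.90 (-1.90 ± 0.17, adjusted p = 1.75e-06), and was also lower with gefitinib alone than in untreated cells (-0.93 ± 0.17, adjusted p = 0.00758). Junb was lower by 1.76 (-1.76 ± 0.13) and Tfe3, a relative of MITF, by 0.98 (-0.98 ± 0.14). Tfec, another relative of MITF, changed by -0.63 ± 0.18 (its probe was above background on 1 of the 3 combined-treatment arrays), and with CpG it was at least 1.41-fold higher than in untreated cells. The exception was Ppargc1b, a coactivator of mitochondrial biogenesis in osteoclasts, which was higher by 0.96 ± 0.20 (adjusted p = 0.00271) and had fallen with CpG (-1.03 ± 0.20).

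Another list holds genes taken as repressors of osteoclast formation, a role that was not tested here. Of 16 tested, 11 were lower, 1 was higher and 4 were not called in CpG with gefitinib against CpG (median -0.65). Of all genes 14.6% were lower and 21.3% higher. In CpG against untreated 9 of the 16 rose and 2 fell, beside 9.58% of all genes higher and 14.3% lower. The higher one, Cyld (0.43), was not called under median scaling. Socs3, the feedback inhibitor of cytokine receptors, changed by -4.86 ± 0.17 (adjusted p = 1.95e-10). Id1, an inhibitor of helix-loop-helix factors, changed by -2.82 ± 0.29, its probe being above background on 2 of the 3 combined-treatment arrays. The NF-kB inhibitors Tnfaip3, also detected on 2 of 3 such arrays, and Nfkbia changed by -2.66 ± 0.24 and -2.40 ± 0.19. Lilrb4a, an inhibitory receptor, changed by -1.57 ± 0.17. Rbpj, the Notch pathway factor, was at least 1.69-fold lower, its probe being detected only on the CpG arrays, through which it passed the filter. Id1 was also lower with gefitinib alone than in untreated cells (-1.13 ± 0.29, adjusted p = 0.0337).

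Of 7 tested fusion genes 4 were lower and 1 higher in CpG with gefitinib against CpG, beside 14.6% of all genes lower and 21.3% higher. The lower ones were Cd44, a hyaluronan receptor, at -1.75 ± 0.12, Cd47 at -1.14 ± 0.12, the metalloprotease gene Adam8 at -1.14 ± 0.16 and Sbno2 at -0.54 ± 0.17 by 1 of its 2 probes. The tetraspanin gene Cd81 was the higher one (0.34 ± 0.11, adjusted p = 0.0285), a call lost under cyclic loess and median scaling. Cd9, another tetraspanin gene, was higher with gefitinib than in untreated cells (0.58 ± 0.12, adjusted p = 0.0133). Of 12 attachment and cytoskeleton genes 5 were lower (3 under median scaling) and 0 higher, beside the same shares of all genes, among them Ptk2b, the kinase PYK2 of the osteoclast sealing zone (-0.69 ± 0.16), Tln1 (-0.66 ± 0.19, above background on 2 of the 3 combined-treatment arrays), Rac2 (-0.62 ± 0.13) and Cbl, which was at least 1.19-fold lower.

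Of 18 tested genes for acid secretion and matrix digestion, 3 were higher and 2 lower in CpG with gefitinib against CpG, beside 35.9% of all genes called, and 4 were lower under cyclic loess. Plekhm1, a regulator of lysosome trafficking whose loss causes osteopetrosis, was higher by 1.37 ± 0.12 (adjusted p = 1.36e-06) and had fallen with CpG (-0.93 ± 0.12). Ostm1, the partner of the chloride transporter CLC-7, was higher by 0.68 ± 0.12, and Atp6v1a, a proton pump subunit, by 0.62 ± 0.13. With gefitinib alone against untreated cells Plekhm1 (0.43 ± 0.12, adjusted p = 0.0494) and Ostm1 (0.43 ± 0.12, adjusted p = 0.0494) were higher, just past the threshold. Mmp9, the gelatinase gene, was lower with both agents than with CpG (-1.22 ± 0.21, adjusted p = 0.000582) and had risen with CpG (1.30 ± 0.21). Atp6v1h was lower with both agents (-0.44 ± 0.10) and had risen with CpG (0.53 ± 0.10), and Atp6v0a1 rose with CpG by 1 of its 2 probes (0.49 ± 0.16, adjusted p = 0.0454).

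**Figure D4:**
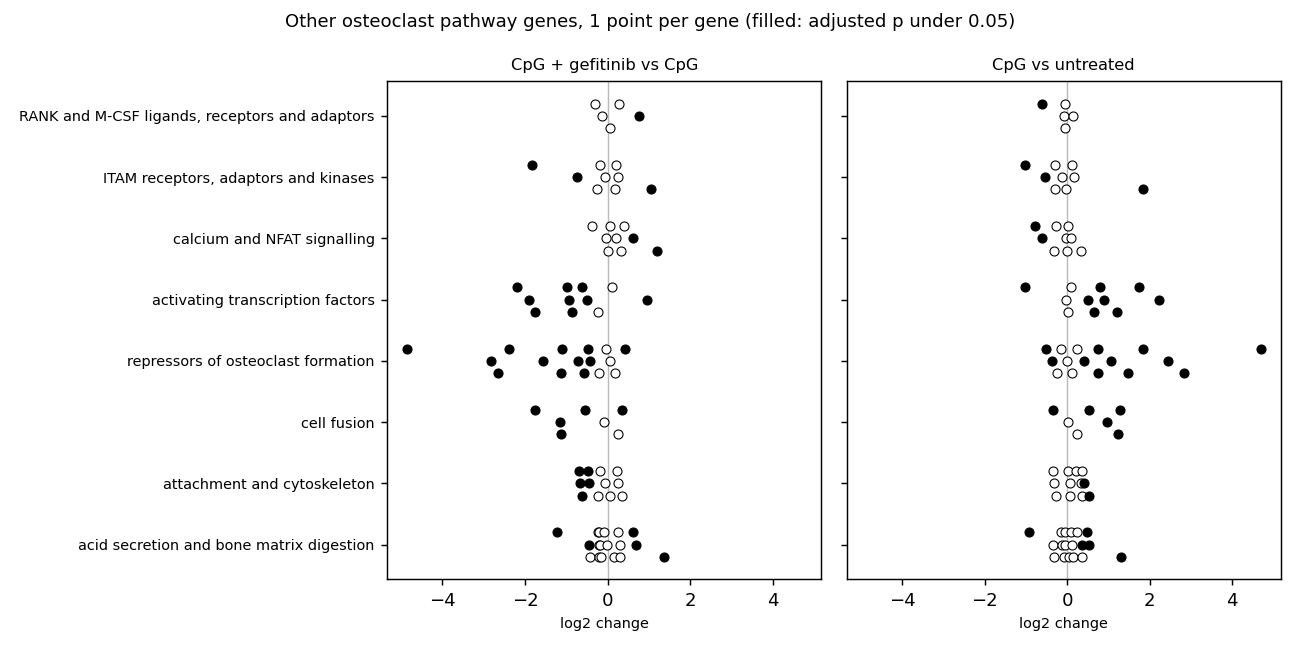
Log2 change (x axis) of each tested gene of the 8 pathway lists (rows), 1 point per gene, in CpG with gefitinib against CpG (left) and CpG against untreated (right), filled where the adjusted p was under 0.05. Genes listed as repressors or as activating factors lie mostly left of 0 in the left panel, where Socs3 is farthest at -4.86. In the right panel they lie mostly right of 0.

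Genes with the pattern most like each tested member over the 12 arrays were sought among 3311 genes called in any pairwise comparison, as a description. The arrays share their treatments, so genes with the same group differences correlate. Nfatc1 by ILMN_2648455 was most like Twsg1 (Pearson r = 0.987), Sft2d2 (0.982) and D630023F18Rik (0.980). For Tnfrsf11a the nearest were P2ry6 (0.859), Ap5b1 (0.858) and Slc7a8 (0.852), and for Ctsk Zbtb41 (0.894), Vcpkmt (0.892) and Ms4a6b (0.855). Oscar reached 0.760 with Tmx1, 0.713 with Ilrun and 0.698 with Ptges3. Acp5 reached 0.563 with Agrn, 0.560 with Nrp and 0.537 with Abhd18. Oscar, Acp5 and Ctsk had signals near background.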

How the data were processed

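The deposited intensity of each probe is the average bead signal on a linear scale, not normalized, exported with GenomeStudio 2010.2 per the submitters' processing notes. The detection p-value beside each signal was deposited with it, per the file headers. A value table of the authors' own, whose intensity columns share the same quantiles, was used as an alternative, and its method is not given in the sources used here. It called as many probes as the quantile-normalized signals without background correction, 1203 in gefitinib against untreated and 624 in CpG with gefitinib against untreated. These alternatives are therefore not independent of each other.

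Signals were background-corrected from the detection p-values, given an offset of 16, quantile-normalized and put on the log2 scale with limma 3.58.1 (neqc) in R 4.3.3, starting from the deposited signals. The fit (lmFit, eBayes) covered all 12 arrays and the 11977 probes detected at p under 0.05 on at least 3 arrays, with Benjamini-Hochberg adjustment over all of them. Probes were named through the platform annotation, which gave 23978 probes 1 symbol, 0 several and 1719 none here, and 8 symbols were updated by gene ID. A pathway gene was represented by its brightest tested probe. Lower bounds on fold changes used, for a group with no detected array, the higher of each array's lowest detected signal and the probe's own. The number of arrays limits the precision.

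All members are named. From each pathway list the text names up to 4 called genes with the largest change in CpG with gefitinib against CpG and up to 2 more called in CpG or gefitinib against untreated. A few further genes (Cyld among them) were named after their values were seen. Members and lists were chosen with earlier results of these data known. No arrays were identical. Same-numbered arrays deviated together in every pair for CpG with gefitinib against CpG (r = 0.121, 0.335 and 0.334) and against gefitinib (0.232, 0.284 and 0.248), but not in the comparisons with untreated cells, as found from the data. Where labels give no source of the cultures beyond biological triplicates, p-values measure the spread between these arrays. Alternatives covered normalization, background, filter, probes per gene, eBayes settings, the replicate block and each array left out, and the scripts were tested on simulated data.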

Additional observations from a re-analysis of the deposited data

Results flagged for a closer look

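The effect of CpG on Nfatc1 differed between cells with gefitinib and cells without it, by a test of the difference itself. The CpG effect with gefitinib minus that without it was 1.15 on the log2 scale at ILMN_2648455 (limma, adjusted p = 0.000878) and 1.15 at ILMN_1216522 (adjusted p = 0.00431). With 3 arrays a group, single arrays were not tested for standing apart.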

How the results depend on the processing

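The Nfatc1 calls at ILMN_2648455 and ILMN_1216522 in CpG with gefitinib against CpG, in CpG against untreated and in the interaction held in every alternative run, and no called value changed sign, but without background correction the sizes were smaller. Median scaling gave 2675 probes and 1 member gene called in CpG with gefitinib against CpG, with Tnfrsf11a at -0.53 (adjusted p = 0.0629), 174 probes and 0 member genes in gefitinib against untreated, with Nfatc1 ILMN_2648704 at 0.41, 86 probes in CpG with gefitinib against untreated and 702 in the interaction, where it put the median of all probes at 0.13 against 0.05. In gefitinib against untreated (772 probes, 1 member gene), cyclic loess gave 0 member genes and ILMN_2648704 at 0.41, the signals without background correction and the authors' table each gave 1203 probes and 0.11, the stricter filter and 1 probe per gene gave 0 member genes, and trended robust eBayes gave 0.42 (adjusted p = 0.117). In CpG with gefitinib against untreated (361 probes), the uncorrected signals and the authors' table gave 624 and trended robust eBayes 590. The replicate block gave 1205 probes and 2 member genes in gefitinib against untreated and 574 probes in CpG with gefitinib against untreated. In both of these comparisons same-numbered arrays did not deviate together in every pair. In CpG with gefitinib against CpG the block gave 4466 probes, added Ctsk and lost no member call. With each array left out, CpG with gefitinib against CpG called 1 to 3 member genes, with Tnfrsf11a between -0.77 and -0.47. Gefitinib against untreated called 227 to 1037 probes and 0 to 2 member genes, with ILMN_2648704 between 0.36 and 0.49. CpG with gefitinib against untreated called 131 to 508 probes and 0 to 1 member genes, with Tnfrsf11a between -0.95 and -0.79. Leaving out any array of either compared group moved these 2 probe counts by over 1.5 times. In the other pathway genes, counts ranged over all alternatives from 8 to 13 higher and 26 to 35 lower in CpG with gefitinib against CpG, from 18 to 29 higher and 7 to 12 lower in CpG against untreated, from 0 to 7 higher and 1 to 3 lower in gefitinib against untreated, and from 0 to 3 higher and 0 to 4 lower in CpG with gefitinib against untreated. Of 71 called values of the 35 named pathway genes, 51 held in every alternative and 0 changed sign. Signals near background limit Oscar, Acp5, Ctsk and the dim Nfatc1 probes, and Mitf, Dcstamp and Itgb3 gave no test.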
